A study of Homo sapiens with 6 samples.

Results

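The transcripts of 9 fucosyltransferases, FUT1, FUT2, FUT3, FUT4, FUT5, FUT6, FUT8, FUT10 and FUT11, were examined in DLD-1 cells with and without DKK1. They were taken as every probe set paired with these gene symbols and with no other, which gave 9 of the 32321 probe sets on the array, 1 per gene. The family was chosen from an earlier reading of this same contrast, in which FUT3 had lower values in the cells with DKK1. The FUT3 difference is therefore given as a description, without a test, and the question asked here was whether the other members shared it. FUT10 and FUT11 are listed as POFUT3 and POFUT4 in the current gene table.

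DLD-1 cells come from a human colorectal adenocarcinoma and carry mutated APC. DLD-1/DKK1 cells carried a lentivirus that expresses a V5-tagged DKK1 together with GFP when doxycycline is present, and DLD-1/Mock cells the same kind of vector without DKK1. DKK1 is a secreted antagonist of the Wnt co-receptors LRP5 and LRP6. Both groups, 3 arrays each, received doxycycline, at 10 mg/ml according to the labels and at the same figure in micrograms according to the methods. Each array was made from its own dish of cells, and no source used here says whether the dishes go back to more than 1 transduction. Errors and p-values therefore describe the spread between dishes. RNA of a whole dish was measured, so that fewer cells with a transcript and less of it per cell cannot be told apart.

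Fucosyltransferases move fucose from GDP-fucose to glycans, mostly in the Golgi. In the intestinal epithelium FUT1 and FUT2 make the H antigen, and FUT3, the Lewis enzyme, adds the fucose that completes Lewis a and Lewis b on type 1 chains and sialyl Lewis a, the epitope of the tumor marker CA19-9. FUT4, FUT5 and FUT6 act chiefly on type 2 chains and give Lewis x and its relatives, which selectins read when they also carry sialic acid. FUT8 adds the core fucose of N-glycans. FUT3, FUT5 and FUT6 are close paralogs that lie side by side on chromosome 19, and FUT1 and FUT2 lie close together elsewhere on it.

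FUT3, whose lower values with DKK1 led to the choice of the family, and its neighbour FUT6 are shown here by the sequences upstream of their RefSeq transcripts. Each is the 250 bases before the start site, read 5′ to 3′ on the minus strand in build GRCh38.p14. Capitals mark the 3 longest runs of letters that the sequences share, each of 8 bases. The FUT3 window is chr19:5851450-5851699 and the FUT6 window chr19:5839703-5839952.
FUT3: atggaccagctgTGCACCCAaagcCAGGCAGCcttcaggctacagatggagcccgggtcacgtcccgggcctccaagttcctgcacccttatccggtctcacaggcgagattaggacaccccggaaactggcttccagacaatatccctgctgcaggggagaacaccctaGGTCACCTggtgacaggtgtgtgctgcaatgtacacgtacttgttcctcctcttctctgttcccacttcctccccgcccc
FUT6: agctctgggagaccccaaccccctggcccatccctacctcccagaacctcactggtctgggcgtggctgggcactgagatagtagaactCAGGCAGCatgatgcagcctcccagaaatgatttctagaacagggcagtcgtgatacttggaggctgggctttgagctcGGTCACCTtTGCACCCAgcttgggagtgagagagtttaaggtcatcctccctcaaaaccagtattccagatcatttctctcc

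No longer run was shared. Upstream windows of 7 of the 9 genes were searched, 10 windows in all, and none of FUT5 or FUT10. None of the 10 held the letters ATCAAAG, the core bound by TCF/LEF factors, on either strand, which 2.26% of all 35116 windows of this length hold. Nor did any hold TTTATG (CDX factors, 9.64% of all windows), GTTAAT (HNF1 half-site, 6.23%) or TGACTCA (AP-1, 4.2%). Each of these motifs is missing from most windows, so that 10 windows are few for such a search. The absence of these exact letters says nothing about binding to variants of them within the windows, or about binding outside the windows.

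The arrays were checked first. DKK1 had log2 values of 5.30 ± 0.38 in DLD-1/Mock and 12.35 ± 0.04 in DLD-1/DKK1 (SD, n = 3 each), a log2 fold change of 7.05 (limma adjusted p = 0.00015). The median log2 value of an array was 6.82 to 6.86 in DLD-1/Mock and 6.76 to 6.81 in DLD-1/DKK1, so that the groups did not overlap in it. Mock 2 stood apart, with correlations of 0.9953 to 0.9969 to the other arrays against 0.9973 to 0.9982 among those 5. Of 10 colorectal epithelial markers, 9 were bright or intermediate in every array, while KRT20, a keratin of differentiated colon epithelium, was dim, with a mean at percentile 32.8 of all probe sets. The 4 leukocyte markers measured had log2 values of 4.29 to 6.49. Their summed log2 values were 21.96 to 22.42 in DLD-1/Mock and 21.74 to 21.97 in DLD-1/DKK1. PTPRC, which marks all leukocytes, was at percentile 9.83 of all probe sets, at 4.29 to 4.40. CD14 had the largest difference among them (-0.27), and the part of such genes in the results was not tested. For fibroblast markers the sums were 31.16 to 32.02 and 30.94 to 31.55, and for endothelial markers 21.75 to 22.48 and 21.60 to 21.86, with Mock 2 highest in each of these 3 lists.

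FUT3, the gene behind the choice of the family, is described first. Its log2 values were 7.90, 8.08 and 8.07 in DLD-1/Mock and 7.51, 7.39 and 7.32 in DLD-1/DKK1. All 3 DLD-1/DKK1 arrays lay below all 3 DLD-1/Mock arrays, and the gap between the groups was 0.39, wider than the spread within either. The means were 8.02 ± 0.10 and 7.41 ± 0.10 (SD, n = 3 each), so that the log2 fold change was -0.61 (SE 0.07) and array values were 1.53-fold higher without DKK1. It was number 12 from the lowest among the 19158 probe sets with a single gene name.

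**Figure D1:**
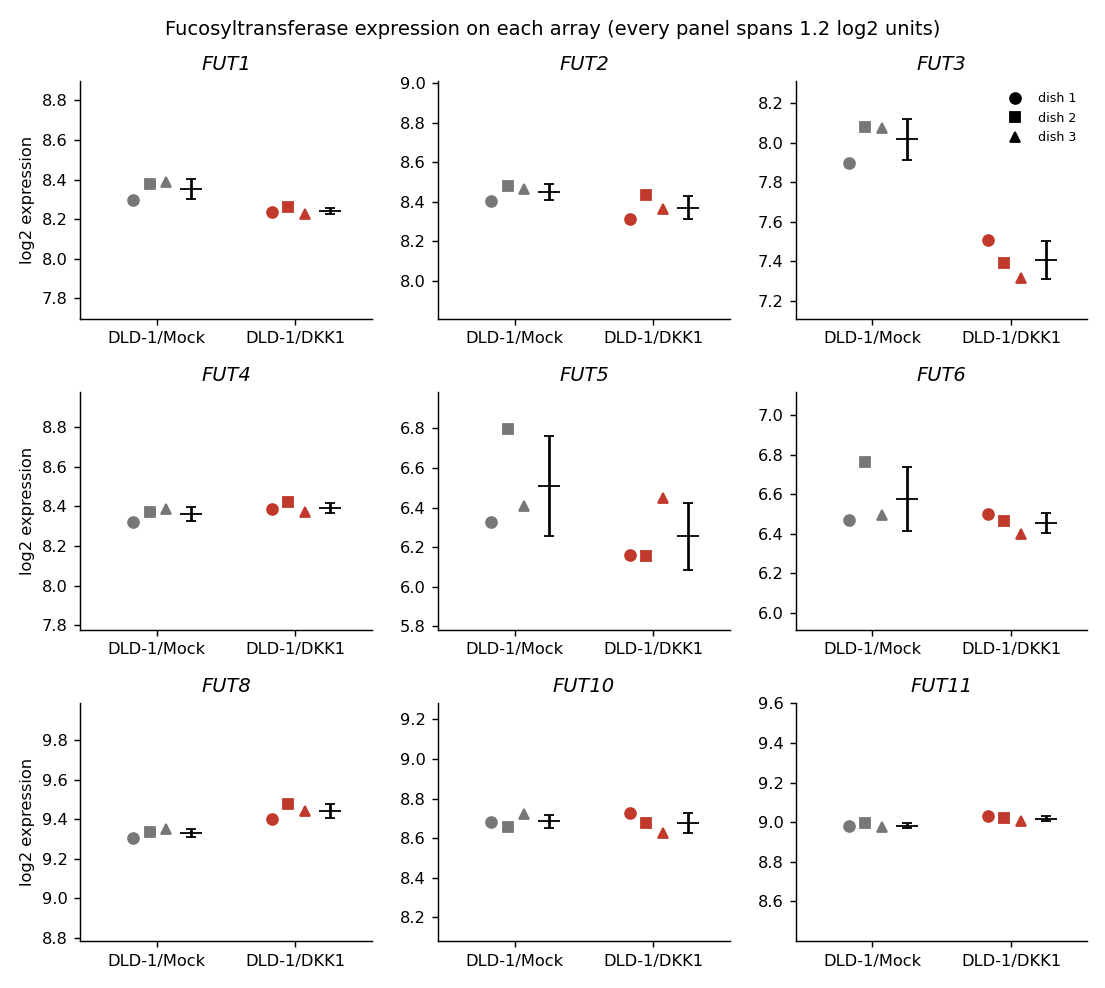
Log2 expression (vertical axis) of the 9 fucosyltransferases on each DLD-1/Mock (grey) and DLD-1/DKK1 (red) array, with 1 symbol per dish number; bars and whiskers give group means ± SD (n = 3). Every panel spans a range of the same width, so that the step of FUT3 from 8.02 to 7.41 can be set against the smaller steps of the other genes.

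Of the 8 other fucosyltransferases, 0 passed an adjusted p of 0.05 with limma over all probe sets, of which 28 (0.0866%) passed. At an unadjusted p under 0.05 there were 2, FUT8 higher and FUT1 lower, against 9.23% of all probe sets. In 3 of the 8 the groups did not overlap, FUT8 and FUT11 with all DLD-1/DKK1 arrays above and FUT1 with all below, against 16.5% of all probe sets in either direction. With 8 genes such counts are too small to be read as a property of the family. The median log2 fold change of the 8 was -0.04, beside -0.01 over all probe sets. FUT3 itself was not among the 28 that passed either, so that this threshold does not set it apart from the 8.

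FUT5, which like FUT3 can fucosylate type 1 and type 2 chains, came nearest to it. Its log2 values were 6.33, 6.80 and 6.41 in DLD-1/Mock and 6.16, 6.15 and 6.45 in DLD-1/DKK1. The groups overlapped, because the third DLD-1/DKK1 array lay above 2 of the DLD-1/Mock arrays. The log2 values differed by -0.26 (SE 0.14; limma adjusted p = 0.609). Its 95% interval of -0.59 to 0.08 took in 0 and was the widest of the 8, so that these arrays fix the size of any difference only to within that range.

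FUT6, an enzyme restricted to type 2 chains, had log2 values of 6.47, 6.76 and 6.49 in DLD-1/Mock and 6.50, 6.46 and 6.40 in DLD-1/DKK1. The groups overlapped here too, and the single high value was that of Mock 2. The log2 fold change was -0.12 (SE 0.08; limma adjusted p = 0.670), with a 95% interval of -0.32 to 0.08.

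In both paralogs the array that stands apart carried much of the difference. Mock 2 lay 0.29 above the DLD-1/Mock mean for FUT5 and 0.19 above it for FUT6. Without Mock 2 the log2 fold change was -0.11 for FUT5 and -0.03 for FUT6, while that of FUT3 was -0.58. FUT3 stayed between -0.67 and -0.57 whichever array was left out. FUT5 ranged from -0.35 to -0.11 and FUT6 from -0.17 to -0.03. The -0.35 of FUT5 was reached without the third DLD-1/DKK1 array, which lay 0.19 above its group mean for that gene. The means of FUT5 and FUT6 lay at percentiles 44.6 and 46.3 of all probe sets, and that of FUT3 at 60.5. Differences are compressed at low brightness, so that a fall of either paralog could have been made smaller or missed. The probe sequences were not used here, and how far transcripts of 1 paralog bind probes of the next was not tested.

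**Figure D2:**
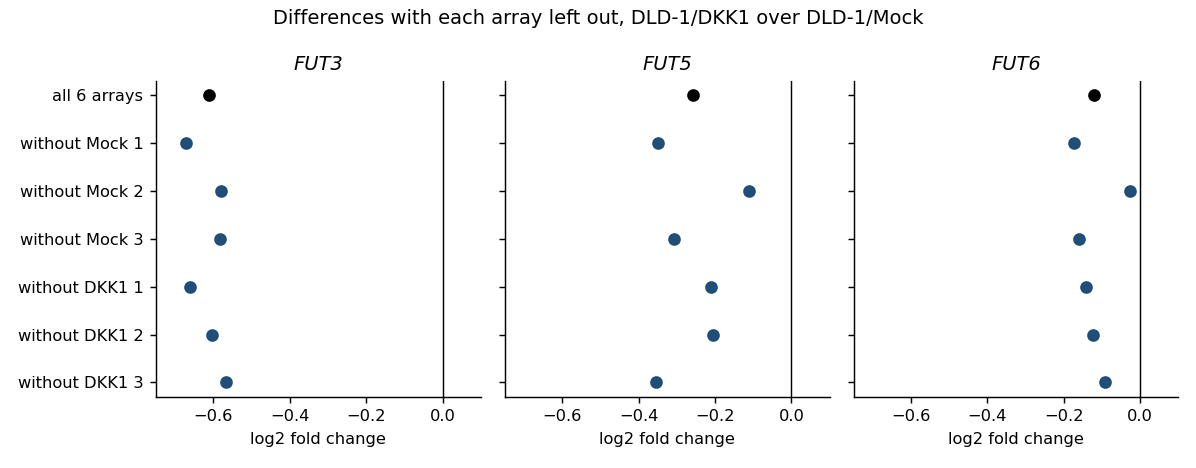
DLD-1/DKK1 minus DLD-1/Mock as log2 fold change (horizontal axis) for FUT3, FUT5 and FUT6, from all 6 arrays (black) and with each array left out in turn (blue). FUT3 stays between -0.67 and -0.57, whereas FUT5 and FUT6 move toward 0, to -0.11 and -0.03, without Mock 2. Without the third DLD-1/DKK1 array FUT5 moves the other way, to -0.35.

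FUT1 and FUT2 make the H antigen that FUT3 converts further, FUT2 being the secretor enzyme of mucosal epithelium. FUT1 had log2 values of 8.30, 8.38 and 8.39 in DLD-1/Mock and 8.24, 8.26 and 8.23 in DLD-1/DKK1, with no overlap but a gap far smaller than that of FUT3. Its log2 fold change was -0.11 (SE 0.04; limma adjusted p = 0.523). FUT2 had 8.40, 8.48 and 8.47 in DLD-1/Mock and 8.31, 8.43 and 8.36 in DLD-1/DKK1, which overlapped. Its log2 fold change was -0.08 (SE 0.05; limma adjusted p = 0.633). Neither gene passed, and the 95% intervals were -0.22 to -0.01 for FUT1 and -0.19 to 0.04 for FUT2.

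FUT4, which makes the Lewis x epitope known on myeloid cells as CD15, had log2 values of 8.32, 8.37 and 8.39 without DKK1 and 8.39, 8.42 and 8.37 with it. These overlapped, and the log2 fold change was 0.03 (SE 0.04; limma adjusted p = 0.794). FUT8, the enzyme of core fucosylation, had 9.31, 9.33 and 9.35 in DLD-1/Mock and 9.40, 9.47 and 9.44 in DLD-1/DKK1. It was the member with the largest positive difference, with no overlap, at 0.11 on the log2 scale (SE 0.04; 95% interval 0.01 to 0.21; limma adjusted p = 0.518).

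FUT10 and FUT11, whose current symbols name them as protein O-fucosyltransferases, had differences near 0. FUT10 had log2 values of 8.68, 8.66 and 8.72 in DLD-1/Mock and 8.73, 8.68 and 8.63 in DLD-1/DKK1, a log2 difference of -0.01 (SE 0.04; limma adjusted p = 0.954) whose sign turned after median centring. FUT11, given to 4 decimals because its groups lay so close, had 8.9808, 8.9944 and 8.9734 against 9.0293, 9.0194 and 9.0045, a log2 difference of 0.03 (SE 0.04; limma adjusted p = 0.763). The groups of FUT11 did not overlap, although the difference was only a few hundredths, since the SD was 0.011 in DLD-1/Mock and 0.013 in DLD-1/DKK1.

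**Figure D3:**
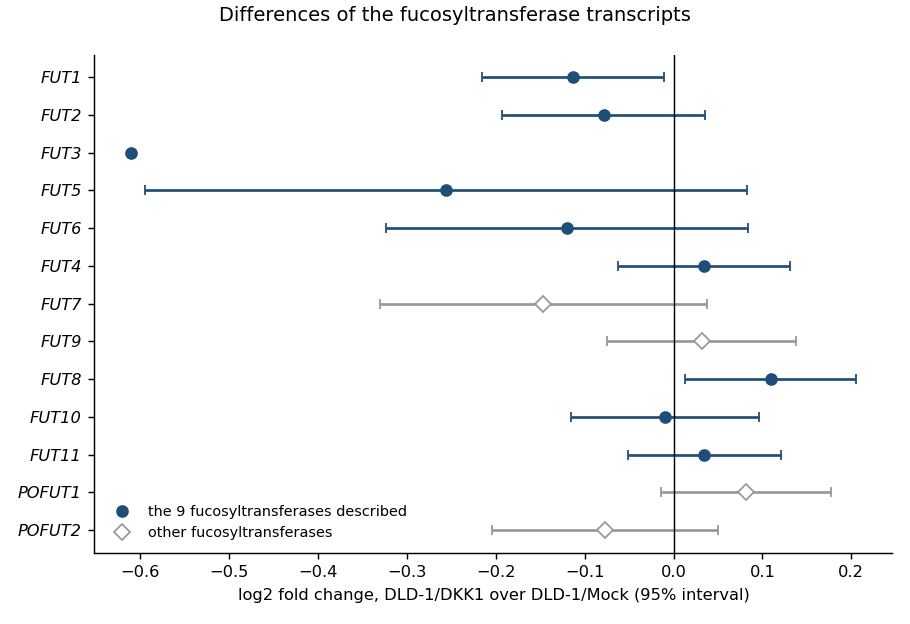
DLD-1/DKK1 minus DLD-1/Mock as log2 fold change (horizontal axis) with its 95% interval from limma, 3 arrays per group, for the 9 fucosyltransferases (filled circles) and 4 further ones (open diamonds). FUT3, at -0.61, is drawn without an interval because its values chose the family, and FUT5 has the widest interval of the rest, -0.59 to 0.08.

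The remaining fucosyltransferases on the array were FUT7 and FUT9, which act on type 2 chains in leukocytes and in brain, and POFUT1 and POFUT2, which fucosylate EGF-like and thrombospondin repeats of proteins. Of these 4, 0 passed with limma and 0 had an unadjusted p under 0.05. Their log2 fold changes ran from -0.15 for FUT7 to 0.08 for POFUT1. FUT9 was near the bottom of the scale, with a mean at percentile 11 of all probe sets, so that a change of it could have been missed.

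The genes around FUT3 on chromosome 19 were compared to see whether its neighbours shared the difference. Of the 10 protein-coding genes taken, 5 on each side of the FUT6, FUT3 and FUT5 genes, 0 passed with limma and 3 had an unadjusted p under 0.05, beside 9.23% of all probe sets. These were LONP1, a mitochondrial protease, with a log2 fold change of 0.18, DUS3L, a tRNA dihydrouridine synthase, with -0.15, and the transcription factor RFX2 with 0.11. The 10 neighbours ran from -0.18 (PRR22) to 0.18. NRTN, next to FUT6, had -0.15 and NDUFA11, next to FUT5, had 0.06. These genes were picked by position after the values of the fucosyltransferases were known.

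**Figure D4:**
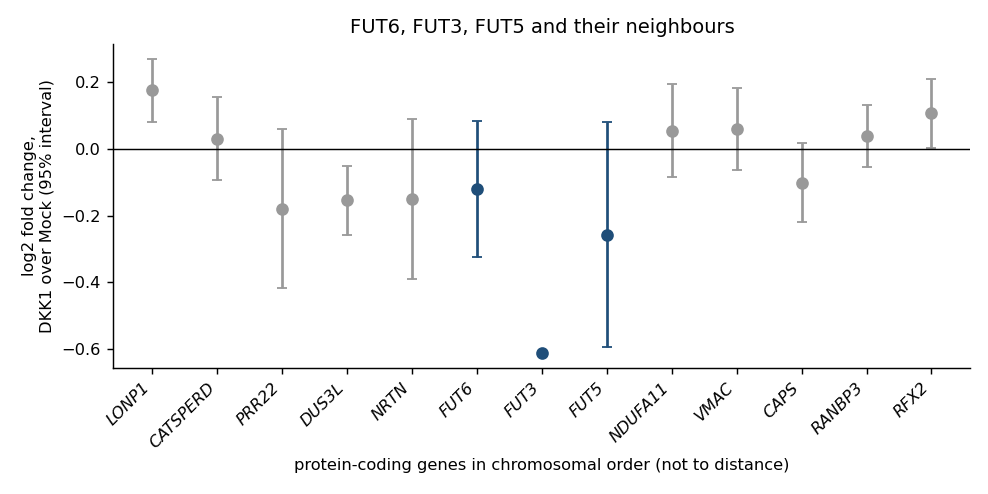
DLD-1/DKK1 minus DLD-1/Mock as log2 fold change (vertical axis) for FUT6, FUT3 and FUT5 (blue) and 5 protein-coding genes on each side (grey), in chromosomal order without scale, with 95% intervals for all but FUT3. The neighbours lie between -0.18 and 0.18, and FUT3 lies at -0.61.

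Genes that supply the fucosyltransferases or act on the same chains were taken from 10 lists, of whose 74 genes 65 were measured. Of these 65, 0 passed with limma across the array, and 12 had an unadjusted p under 0.05, 6 higher and 6 lower (18.5%, beside 9.23% of all probe sets). Their median log2 fold change was -0.01, the same to 2 decimals as that of all probe sets. In the 4 lists with 8 or more measured genes the median lay between -0.01 and 0.02.

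Donor supply was examined through 8 genes of GDP-fucose synthesis and transport, of which 0 passed and 0 had an unadjusted p under 0.05. GMDS, the first enzyme of the main route from GDP-mannose, had 0.13, and GFUS, the next, 0.07. SLC35C1, the Golgi transporter of GDP-fucose, had 0.02. The fucosidases FUCA1 and FUCA2, which remove fucose in lysosomes and outside the cell, had -0.04 and -0.02.

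Among 14 enzymes that build type 1 and type 2 chains, 0 passed. An unadjusted p under 0.05 was seen in 2, both lower, beside 9.23% of all probe sets. The groups did not overlap in these 2 and in 3 with higher values in DLD-1/DKK1, beside 16.5% of all probe sets. The median log2 fold change of the list was 0.01. B3GNT8, which extends branched N-glycans, had -0.19 (SE 0.05; limma adjusted p = 0.398) with no overlap, and B3GNT3, which extends core 1 O-glycans, had -0.14 (SE 0.05; limma adjusted p = 0.482). B3GALT5, the main maker of the type 1 chain that FUT3 uses in colon, was dim, at no more than 5.22 on any array, with a log2 fold change of 0.07. Of 6 genes for mucin-type cores and branches, 0 passed and, beside 9.23% of all probe sets, 1 had an unadjusted p under 0.05. This was C1GALT1C1, the chaperone of the core 1 synthase, with 0.28 (SE 0.09; limma adjusted p = 0.495).

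Sialyltransferases compete with fucosyltransferases for the same chain ends or prepare them for sialyl Lewis antigens. Of 14 sialyltransferase and sialidase genes, 0 passed and 4 had an unadjusted p under 0.05, 3 of them higher, beside 9.23% of all probe sets. ST3GAL2, which sialylates core 1 O-glycans and gangliosides, came nearest to the threshold, with log2 values of 9.05, 9.09 and 9.16 in DLD-1/Mock and 9.47, 9.56 and 9.45 in DLD-1/DKK1. The groups were clearly apart, by a log2 difference of 0.40 (SE 0.05; limma adjusted p = 0.0808). It passed in 3 of 14 alternative settings, with adjusted p values of 0.0233 to 0.0463, and not in the other 11, where they reached 0.334 with 1 array left out and 0.417 with the replicate number as a block. ST6GALNAC2, which adds sialic acid to the base of O-glycans, had 7.63, 7.44 and 7.73 against 7.27, 7.30 and 7.25, a log2 difference of -0.33 (SE 0.08; limma adjusted p = 0.371). The others, named after their values were seen, were ST6GAL1 with 0.31 and ST3GAL5, the GM3 synthase, with 0.21. ST6GALNAC4 and ST6GALNAC6 each had a second, dimmer probe set whose difference had the opposite sign (0.21 beside -0.06, and -0.32 beside 0.04), and none of these passed. ST3GAL3, ST3GAL4 and ST3GAL6, the enzymes that make the sialylated precursors of the sialyl Lewis antigens, had -0.01, -0.02 and 0.03.

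Of 4 genes for other caps on these chains, ABO, A4GALT, GBGT1 and B4GALNT2, which makes the Sda antigen of colon, 0 passed and 0 had an unadjusted p under 0.05. All 4 had log2 fold changes below 0, from -0.15 to -0.05. Among 9 carrier proteins measured, 0 passed and 4 had an unadjusted p under 0.05, 2 higher and 2 lower, beside 9.23% of all probe sets. The adhesion molecule CEACAM1 had 7.73, 7.63 and 7.72 in DLD-1/Mock and 7.95, 7.92 and 7.93 in DLD-1/DKK1, a log2 difference of 0.24 (SE 0.04; limma adjusted p = 0.241), and its relative CEACAM6 had one of -0.32 (SE 0.09; limma adjusted p = 0.443). CD44 (0.13) and CEACAM5 (-0.14) were the others, again named after their values were seen. The selectins SELE and SELP, which are made by endothelium and platelets and not by epithelium, were dim, at 5.02 to 5.41. SELE had an unadjusted p under 0.05 with a log2 fold change of -0.13 (limma adjusted p = 0.523) and without overlap, at values near the bottom of the scale. The intestinal transcription factors CDX2 and CDX1 had 0.06 and -0.09, and neither passed.

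**Figure D5:**
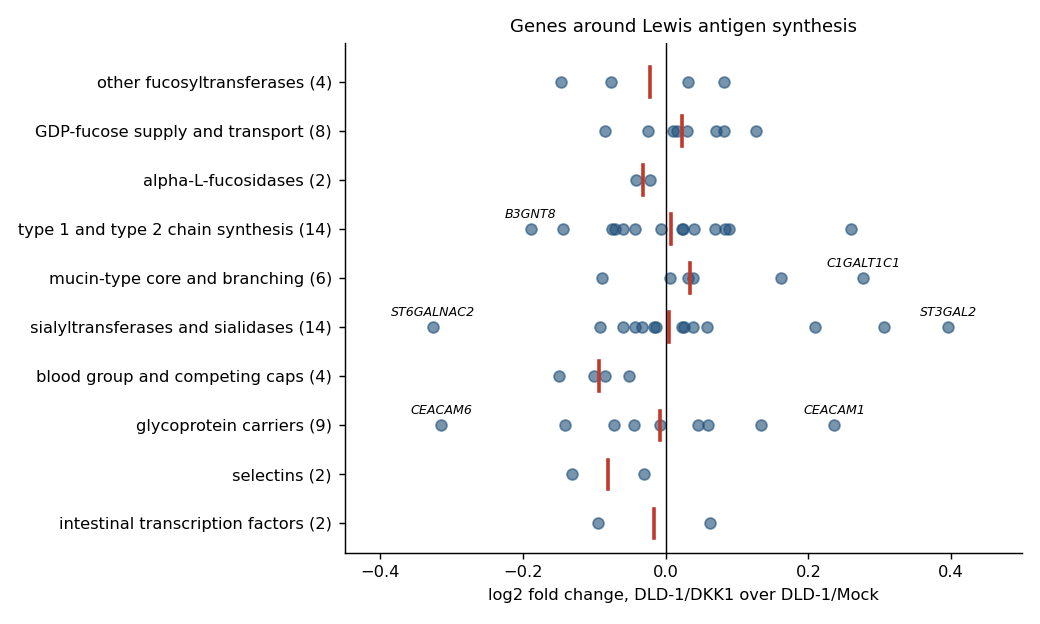
DLD-1/DKK1 minus DLD-1/Mock as log2 fold change (horizontal axis) for each measured gene of the 10 lists around Lewis antigen synthesis, with points for genes, red bars at list medians and gene numbers in brackets. No gene passed with limma across the array, and ST3GAL2 at 0.40 and ST6GALNAC2 at -0.33 lie farthest out.

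The genes whose values followed those of FUT3 most closely over the 6 arrays were ABCA12, a lipid transporter of the ABC family, with a Pearson correlation of 0.9925, then OR4C3, UBAP2, CLASP1 and SERPINB9, with correlations of 0.9860 to 0.9886. With 6 arrays in 2 groups, any gene that differs between the groups with little spread within them ranks high here. Their differences were unequal, with log2 fold changes of -0.49 for ABCA12 and -0.39 for the granzyme B inhibitor SERPINB9, and -0.06 for UBAP2. No other fucosyltransferase was among them, which says little about the family, since only 5 genes of the whole array were named.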

How the data were processed

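The authors hybridised RNA to Affymetrix Human Gene 1.0 ST arrays and deposited log2 values made in R with affy and the robust multichip average, which corrects background, equalises the arrays' distributions and summarises probes. Their versions are not given in the sources used here. This removes much of any shift that most transcripts share, though array medians still differed between the groups, and it compresses differences at low brightness. A percentile of brightness places a probe set on the array and does not compare transcript amounts between genes, and precision is limited by how many arrays there are.

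Of 32321 probe sets, 19158 carried 1 gene symbol, 1388 several and 11775 none. Current symbols came from RefSeq by gene number (GRCh38.p14; 19128 matched). The whole table was fitted with limma 3.58.1 (lmFit and eBayes, R 4.3.3) on the contrast DLD-1/DKK1 minus DLD-1/Mock. The tests were two-sided, on 4 residual plus 2.56 prior degrees of freedom, and used Benjamini-Hochberg adjustment across the array at 0.05. Intervals are at 95%. For lists, the brightest probe set of each gene was used. Named were DKK1, all members, from each list up to 2 genes with the smallest unadjusted p under 0.05, and the 5 genes that correlated best with FUT3. Other genes were named after their values were seen. The members and lists were chosen with earlier results of these data known. List genes with no probe set of their own name, such as GCNT1 and PMM2, were not analysed here. The fit was checked on simulated arrays. Alternatives were other normalisations, filters, priors, array weights, the replicate number as a block and each array left out. Figures were drawn with matplotlib 3.10.9.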

Additional observations from a re-analysis of the deposited data

How the results depend on the processing

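Across 14 alternative settings, of which cyclic loess was chosen after the data were seen, FUT3 stayed between -0.67 and -0.56 on the log2 scale and the number of the 8 other fucosyltransferases past the threshold stayed at 0. Centring each array on its median raised the median of all probe sets to 0.05. FUT10 then had 0.043, and it ranged from -0.034 to 0.015 with 1 array left out, its sign turning without Mock 3 and without the third DLD-1/DKK1 array. The other fucosyltransferases kept their sign in all settings run on them but not their size. After centring FUT1 had -0.061, FUT2 -0.026, FUT4 0.086, FUT6 -0.067 and FUT11 0.087. FUT6 had -0.071 after quantile normalisation, -0.066 with cyclic loess and -0.054 with array weights, under which FUT5 had -0.17. FUT11 had 0.020 after quantile normalisation. FUT2 had -0.051 without the first DLD-1/DKK1 array, and FUT4 had 0.014 without Mock 1 and 0.020 without the second DLD-1/DKK1 array. FUT5 and FUT6 were not tested above the median brightness, which they do not reach. In the list of sialyltransferases and sialidases 1 gene, ST3GAL2, passed above the median brightness, 1 among annotated probe sets and 1 with a trended and robust prior, with the same fold change of 0.40. The cause was not tested. Over all probe sets the 28 calls (12 higher, 16 lower) became 17 (10 higher, 7 lower) after median centring, 66 above the median brightness, 98 among annotated probe sets, 53 with the trended and robust prior, 59 with array weights and 2 to 6 with 1 array left out. The labels number the dishes and do not say that equal numbers form pairs. The deviations of same-numbered dishes had correlations of 0.10, 0.01 and -0.14, and not every array correlated best with its own number. With 3 dishes per group these values cannot show whether same-numbered dishes were handled together. With the replicate block 1 probe set passed and 0 of the fucosyltransferases.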
